A study of Mus musculus with 2 samples.

Results

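Genes that supply peptides to MHC class I molecules were read in Langerhans cells of Il34LacZ/LacZ mice, which carry a LacZ cassette in both copies of Il34, and of Il34+/LacZ mice, which carry it in 1 copy. The group holds 10 genes, chosen by name for their role in the pathway: the peptide transporter subunits Tap1 and Tap2, the loading factor Tapbp, the light chain B2m, the heavy chain H2-M3, the immunoproteasome subunits Psmb8, Psmb9 and Psmb10, the trimming peptidase Erap1 and the transcriptional activator Nlrc5. They are 10 of 19937 genes that the array reads with a probe set of a single gene symbol, and they have 28 such probe sets, 19 of them for Nlrc5.

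All nucleated cells show fragments of their own proteins to CD8 T cells on MHC class I molecules. The proteasome cuts proteins into peptides, TAP pumps the peptides into the endoplasmic reticulum, ERAP1 trims them there, and tapasin helps to load them onto a heavy chain paired with beta-2 microglobulin. Interferon gamma raises most of these genes, in part through the activator NLRC5, and the immunoproteasome subunits then replace the constitutive catalytic subunits. Langerhans cells are the antigen-presenting cells of the epidermis, and they depend in resting skin on IL-34, a ligand of the CSF1 receptor.

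Each genotype was measured on 1 array, so every value is a single measurement and no difference between genotypes can be tested. Ultraviolet irradiation for 30 min preceded the sort by 21 days in both genotypes, the mice were 8 to 12 weeks old, and the sorted cells stained for Langerin as well as Epcam. No unexposed and no Il34+/+ animals were compared, and the number of animals behind each array is not given in the sources used here. Differences are Il34LacZ/LacZ minus Il34+/LacZ on the log2(intensity + 16) scale, folds are on the same scale, and they understate the change of dim genes. The floor was an intensity of 48.7, the middle value of the 2 arrays' probe sets. Il34 itself, which keratinocytes make, read 64.4 in Il34LacZ/LacZ and 39.4 in Il34+/LacZ, near the floor on both arrays, and where its probes lie relative to the cassette is not given, so it does not check the genotype labels. The array medians were 51.9 in Il34LacZ/LacZ and 45.2 in Il34+/LacZ. The one error that the values give is the disagreement between probe sets of a gene, an SD of 0.62 (1.54-fold, over 614 genes), which covers neither animals nor sorts.

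All 10 genes reached the floor on at least 1 array, and none was higher in Il34LacZ/LacZ by 1.5-fold. Tap1, H2-M3, Erap1, Psmb9, Psmb10 and Nlrc5, 6 of the 10, were at least 1.5-fold lower, where, of 12843 genes that reach the floor on an array, 29.8% were lower and 15.9% higher by that fold. With each array scaled on its upper quartile these shares were 17.9% and 30.1%, and with quantile normalization 19.5% and 17.4%. The Nlrc5 call rests on 1 of its 19 probe sets and was lost in 5 of 10 other settings, with -0.45 for the mean of its probe sets and -0.07 with quantile normalization. Erap1 reached the floor in Il34+/LacZ alone, so its direction follows from the floor. The median difference of the 10 genes was -0.75, against -0.16 for all 12843. In bulk RNA, fewer cells of a type and less RNA per cell cannot be told apart.

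Much of this lower reading was shared by other genes of similar brightness. The difference between the arrays depended on the level of a gene, so each gene was set beside the 500 genes nearest to it in mean level, whose median difference lay between -0.66 and 0.06. Relative to that median, 3 of the 10 genes, Tap1, Erap1 and H2-M3, were at least 1.5-fold lower, where 18.0% of all genes were lower and 14.1% higher. The median over the 10 genes on this measure was -0.15, against 0.03 for all genes. By 2-fold, 4 of the 10 were lower and none higher as deposited, where 13.1% of all genes were lower and 2.55% higher. Relative to their level, Tap1 and Erap1 were lower by 2-fold and none was higher, where 6.86% of all genes were lower and 4.48% higher. The distance of the 10 genes to their level ran from -1.28 for Erap1, which reached the floor in Il34+/LacZ alone, to 0.46 for B2m.

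**Figure D1:**
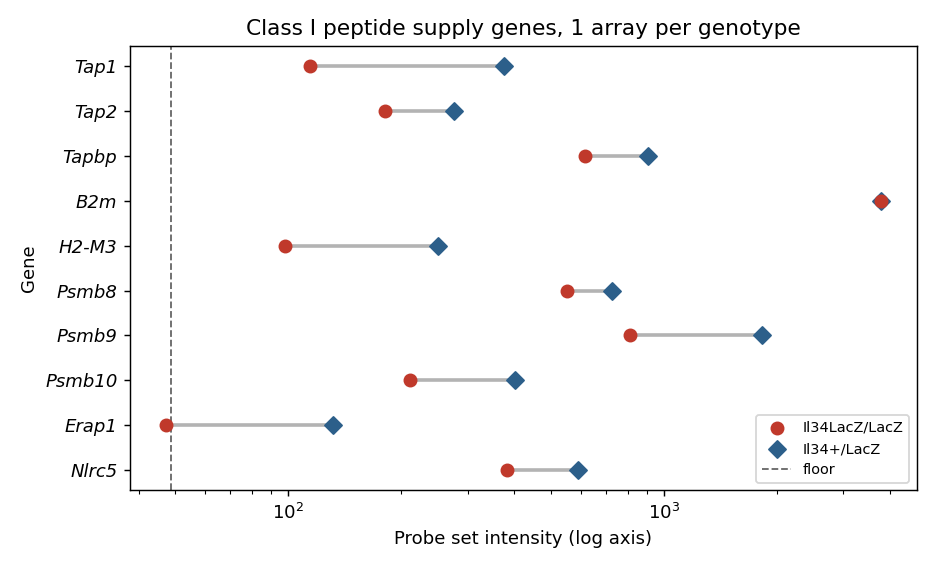
Probe set intensity (log axis) of the 10 genes on the single Il34LacZ/LacZ array (circles) and the single Il34+/LacZ array (diamonds), with the floor of 48.7 as a dashed line. The points lie widest apart for Tap1, Erap1 and H2-M3, and coincide for B2m.

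**Figure D2:**
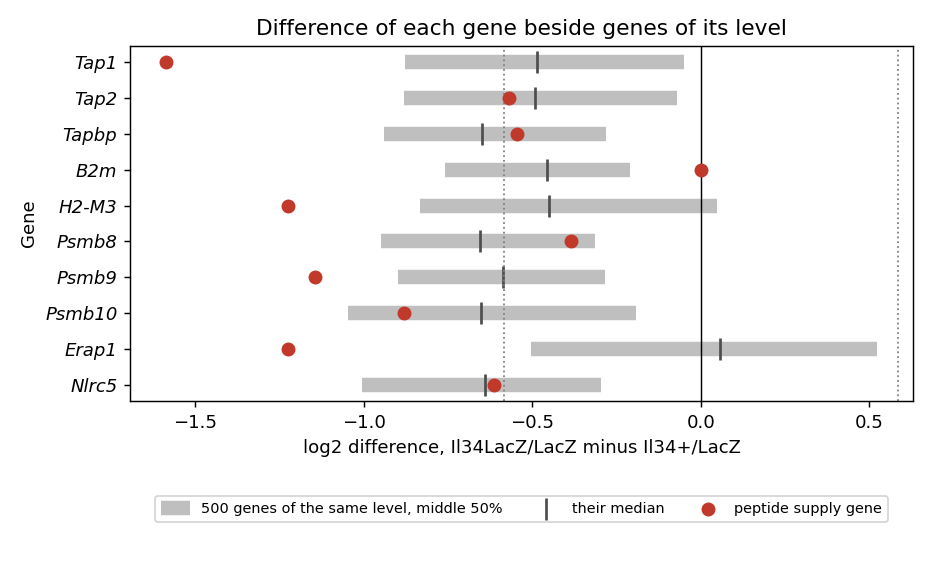
The log2 difference of each gene (points) beside the middle 50% (bars) and the median (ticks) of the 500 genes nearest in level, with 1.5-fold in either direction dotted. Tap1, H2-M3, Erap1 and Psmb9 lie below the bar of their level, and B2m lies above it.

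The peptide transporter is built of 1 TAP1 and 1 TAP2 chain, and the probe sets of the 2 genes differed by unequal amounts. Tap1 read 114 in Il34LacZ/LacZ and 375 in Il34+/LacZ, a difference of -1.59 or 3.01-fold lower. Among the 500 genes of its level, 21 had a lower difference, and its distance to their median was -1.10. Tap2 read 181 in Il34LacZ/LacZ and 276 in Il34+/LacZ, a difference of -0.57, which falls just short of 1.5-fold and lay -0.08 from genes of its level. The Tap1 minus Tap2 value was -1.02, with values from -1.10 to -0.83 under the other pseudocounts, upper quartile scaling and quantile normalization. Centring and the probe set rules cannot move it, as each gene has 1 probe set. The probe set SD for such a pair was 0.88, so the gap is little larger than the disagreement between probe sets.

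Tap1 lies head to head with Psmb9 on chromosome 17, and both are transcribed away from 1 short stretch of DNA. The stretch between their annotated starts is shown because it is the upstream region of 2 genes that both read lower. It spans chr17:34187331-34187555 in GRCm38.p6 (225 bases, RefSeq), is written on the strand of Tap1, and begins at the Psmb9 side. Capitals mark CCAAT, the motif bound by NF-Y, and TGACG, a motif of CREB and ATF factors.
Psmb9-Tap1: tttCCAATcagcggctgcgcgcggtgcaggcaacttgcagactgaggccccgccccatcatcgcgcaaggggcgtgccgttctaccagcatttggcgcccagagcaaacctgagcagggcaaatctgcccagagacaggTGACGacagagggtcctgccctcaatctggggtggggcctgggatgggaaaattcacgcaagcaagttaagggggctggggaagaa
CCAAT lies at -222 and TGACG at -86 from the Tap1 start. On either strand, CCAAT was present in 37.4% and TGACG in 20.8% of 32851 RefSeq promoters, read from 250 bases before to 50 after the start. Neither GAAA, any 2 bases and GAAA again, the core of the interferon-stimulated response element, nor TTCNNNGAA, the core of STAT sites, was found in this stretch on either strand. A match or its absence is a description of the letters only. The differences of the 2 genes, -1.59 for Tap1 and -1.14 for Psmb9, gave a Tap1 minus Psmb9 value of -0.44, which is within the probe set SD for a pair.

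Tapbp, which encodes tapasin, the bridge between TAP and the empty class I molecule, lay close to the median of its level. It read 615 in Il34LacZ/LacZ and 906 in Il34+/LacZ, a difference of -0.55 that lay 0.10 above genes of its level. A further pair of probe sets that the annotation gives to both Tapbp and Rps3a1 was not used.

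The heavy chain H2-M3 and the light chain B2m differed between the arrays by unequal amounts. H2-M3, a heavy chain that presents formylated peptides in the mouse, read 97.8 in Il34LacZ/LacZ and 250.1 in Il34+/LacZ, a difference of -1.23 or 2.34-fold lower. Of the 500 genes of its level, 41 had a lower difference, and it lay -0.78 from their median. B2m, the light chain that nearly all class I heavy chains share, read 3776 on both arrays, to every digit deposited. It lay 0.46 above genes of its level, of which 437 of 500 had a lower difference. In all, 448 of 34760 probe sets held the same value on both arrays, but among the 2175 with a mean intensity of 500 or more B2m was the only one. How a probe set comes to hold 1 value on both arrays was not tested. The sign of its difference followed the scaling, at -0.15 with each array centred on its median, 0.27 with quantile normalization and 0.29 with upper quartile scaling.

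The upstream sequences of H2-M3 and B2m are shown because these genes share a promoter layout and gave an H2-M3 minus B2m value of -1.23. The probe set SD for such a pair was 0.88. Each is the 250 bases before the annotated start in GRCm38.p6 (RefSeq), at chr17:37269984-37270233 for H2-M3 and chr2:122147437-122147686 for B2m. Capitals mark TGACG followed, after exactly 20 bases, by ATTGG, the reverse complement of the NF-Y motif CCAAT.
H2-M3: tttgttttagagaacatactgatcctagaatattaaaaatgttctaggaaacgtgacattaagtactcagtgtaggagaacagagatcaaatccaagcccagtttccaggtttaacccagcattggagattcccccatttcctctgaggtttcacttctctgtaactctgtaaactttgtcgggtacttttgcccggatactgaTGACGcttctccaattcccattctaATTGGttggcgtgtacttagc
B2m: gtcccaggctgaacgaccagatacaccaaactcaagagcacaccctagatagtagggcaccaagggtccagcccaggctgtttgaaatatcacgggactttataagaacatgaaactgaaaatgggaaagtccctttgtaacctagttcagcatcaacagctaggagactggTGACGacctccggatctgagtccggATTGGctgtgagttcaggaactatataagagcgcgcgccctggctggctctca
In class I promoters such boxes belong to the module on which NLRC5 acts together with RFX, CREB and NF-Y. The pair begins at -46 in H2-M3 and at -78 in B2m. The spacing was chosen after these 2 sequences had been read, and on either strand it was found in 31 of 32851 promoters (0.0944%). These promoters belong to 27 genes, H2-M3 and B2m included. Most of the 27 are not class I chains, while the classical heavy chains H2-K1 and H2-D1 are among them. The letters of the pair are also counted in the single motifs. Of the 8 genes in the promoter table, which are all but Tap2 and Nlrc5, the other 6 did not hold it. The interferon-stimulated response element core was found in B2m at -139 and in Erap1 at -4, and in 3.44% of all promoters. TTCNNNGAA was found in Psmb8 at -97 and in H2-M3 at -209, and in 8.30% of all promoters.

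The 3 immunoproteasome subunits also differed by unequal amounts. Psmb9, the beta1i subunit, read 815 in Il34LacZ/LacZ and 1819 in Il34+/LacZ, 2.21-fold lower, with a difference of -1.14 that lay -0.56 from genes of its level. Psmb10, the beta2i subunit, read 211 in Il34LacZ/LacZ and 402 in Il34+/LacZ, 1.84-fold lower, and lay -0.23 from genes of its level. Psmb8, the beta5i subunit, read 553 in Il34LacZ/LacZ and 726 in Il34+/LacZ, a difference of -0.38 that turned to 0.13 with quantile normalization. It lay 0.27 above genes of its level. Psmb10 no longer reached 1.5-fold with quantile normalization, at -0.40, while Psmb9 stayed beyond it in all 9 settings computed for its difference. The floor and probe set rules among these cannot move the Psmb9 value, as the gene has 1 probe set.

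Each of these subunits takes the place of a constitutive one, and the pairs did not run one way. Psmb6, the partner of Psmb9, read 832 in Il34LacZ/LacZ and 694 in Il34+/LacZ, a difference of 0.26. The Psmb9 minus Psmb6 value was -1.40, a 2.64-fold lower ratio, which is more than the probe set SD of 0.88 for a pair. Psmb5, the partner of Psmb8, read 813 in Il34LacZ/LacZ and 626 in Il34+/LacZ, a difference of 0.37, and the Psmb8 minus Psmb5 value was -0.75. Psmb7, the partner of Psmb10, read 214 in Il34LacZ/LacZ and 670 in Il34+/LacZ, a difference of -1.58, so that Psmb10 minus Psmb7 was 0.70. The last 2 pairs lay within the probe set SD for a pair. Under the other pseudocounts, upper quartile scaling and quantile normalization, the settings that can move these pairs, the Psmb9 minus Psmb6 value ran from -1.43 to -1.34, that of Psmb8 minus Psmb5 from -0.77 to -0.70 and that of Psmb10 minus Psmb7 from 0.64 to 0.72.

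Erap1, the aminopeptidase that trims peptides to class I length in the endoplasmic reticulum, was the gene furthest below its level. It read 47.2 in Il34LacZ/LacZ, just under the floor, and 132 in Il34+/LacZ, or at least 2.28-fold lower when the dim array is set to the floor. Because it reached the floor in Il34+/LacZ alone, its direction follows from the floor. Its measured difference was -1.22, and because genes of its level had a median of 0.06, its distance to them was -1.28. Of the 500 genes of that level, 22 had a lower difference. With a pseudocount of 64 in place of 16 the difference was -0.82.

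Nlrc5, the activator of class I genes, gave no single answer, since its 19 probe sets disagreed. The probe set with the highest mean read 382 in Il34LacZ/LacZ and 592 in Il34+/LacZ, a difference of -0.61 that is just past 1.5-fold and lay 0.03 from genes of its level. Over all 19 the intensities had a lowest value of 19.3, a median of 119 and a highest of 421 in Il34LacZ/LacZ. In Il34+/LacZ these were 53.2, 122 and 684. At least 1.5-fold, 9 probe sets were lower and 2 higher, and 8 lay between. The differences had a mean of -0.45 ± 0.87 (SD over 19 probe sets of 1 gene on the same 2 arrays, which are not replicates) and a median of -0.51. They ran from -2.92, for a probe set at 76.8 in Il34LacZ/LacZ and 684 in Il34+/LacZ, to 0.92, for one at 224 in Il34LacZ/LacZ and 110.2 in Il34+/LacZ. Relative to genes of the same level, 7 were lower and 3 higher, and the median was -0.10.

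**Figure D3:**
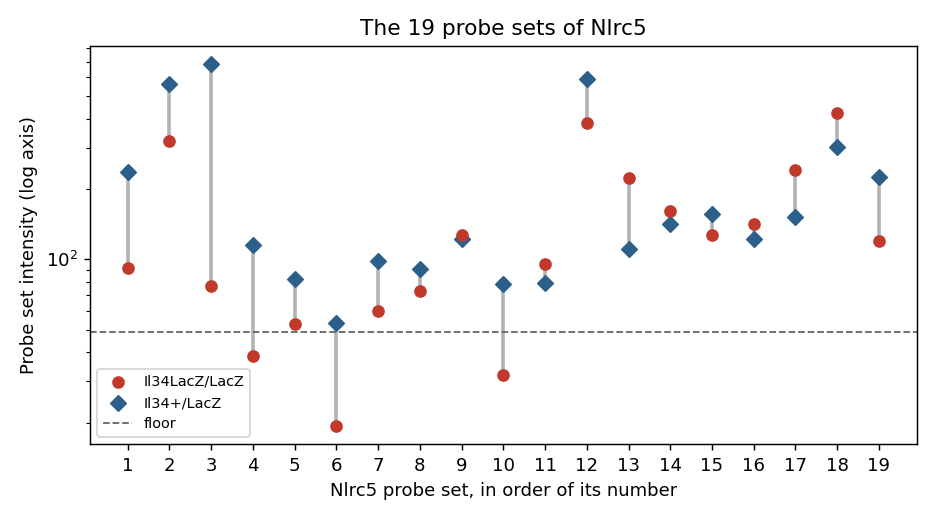
Intensity (log axis) of the 19 probe sets of Nlrc5 in the order of their numbers, on the Il34LacZ/LacZ array (circles) and the Il34+/LacZ array (diamonds), with the floor dashed. Circles lie below diamonds for 12 probe sets and above them for 7.

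Psmb9, Tap1, Psmb8 and Tap2 stand side by side in the class II region of chromosome 17, within 34292 bases in GRCm38.p6, and they did not differ alike. In this order along the chromosome their differences were -1.14, -1.59, -0.38 and -0.57, and relative to genes of the same level -0.56, -1.10, 0.27 and -0.08. Tap1 and Psmb8 are direct neighbours and lie at the 2 ends of this range. Of the class II list, 8 genes reached the floor, 3 of them lower by 1.5-fold or more and none higher, near the 29.8% of all genes. With quantile normalization or upper quartile scaling 1 of the 8 was lower, with centring 5, and relative to genes of the same level 1. Brd2, a chromatin reader encoded in the region, read 366 in Il34LacZ/LacZ and 684 in Il34+/LacZ (difference -0.87). H2-Eb2, H2-Oa and H2-DMa differed by -0.75, -0.62 and -0.52. The class II chains H2-Ab1 and H2-Aa, the brightest of the list, differed by -0.08 and -0.16. The median of the 8 was -0.50, and 0.01 relative to genes of the same level.

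**Figure D4:**
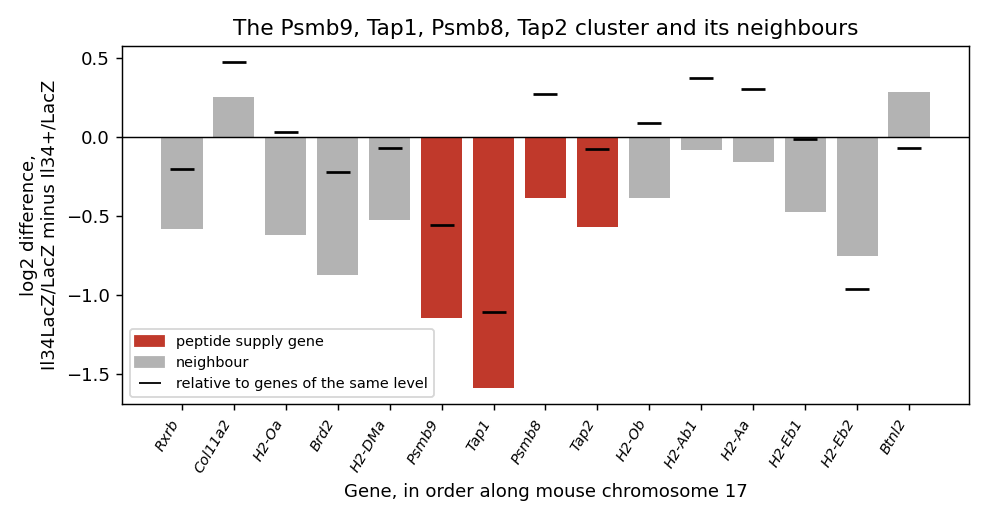
The log2 difference, Il34LacZ/LacZ minus Il34+/LacZ (bars), and the same relative to genes of the same level (black ticks) for protein-coding genes with a single-symbol probe set, in their order along chromosome 17 from 150 kb before Psmb9 to 150 kb after Tap2. Psmb9 and Tap1 have the lowest bars, and the bars of Psmb8 and Tap2 lie among those of their neighbours.

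Heavy chains other than H2-M3 were mostly read by probe sets of several symbols, H2-K1 and H2-D1 among them, and were not analysed here. The 4 on the list that reached the floor are near-identical copies that can share signal, so their values are uncertain. H2-K2 read 145 in Il34LacZ/LacZ and 447 in Il34+/LacZ (difference -1.52), while H2-Q4, H2-Q2 and H2-Q10 differed by 0.26, 0.30 and 0.37. H2-Q10 reached the floor in Il34LacZ/LacZ alone, so its direction follows from the floor. Relative to genes of the same level H2-K2, H2-Q4, H2-Q2 and H2-Q10 lay at -0.99, 0.94, 0.14 and -0.02. Of 6 non-classical and class I-like genes that reach the floor, 3 were lower by 1.5-fold or more and 1 higher. Of all genes 29.8% were lower and 15.9% higher by that fold. Relative to genes of the same level 1 of the 6 was lower and 1 higher, with a median of -0.05. Hfe, a class I-like regulator of iron uptake, differed by -1.07, H2-M5 by -0.76 and H2-M2 by -0.70. H2-M5 and H2-M2 lay only -0.12 and -0.05 from genes of their level. Cd1d2, a lipid presenter, and H2-T24 differed by 0.28 and 0.40, and H2-T10 read 291 in Il34LacZ/LacZ and 186 in Il34+/LacZ (difference 0.60). The median of these 6 was -0.21, or 0.06 with upper quartile scaling, where 1 was lower and 2 higher.

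Chaperones and glycan enzymes of the endoplasmic reticulum, and helpers of the proteasome, read lower in most cases as deposited. Of 8 such chaperones and enzymes 5 were at least 1.5-fold lower and none higher, with a median of -0.70. Of all genes 29.8% were lower and 15.9% higher by that fold. Relative to their level 3 of the 8 were lower, with a median of -0.40, beside 18.0% of all genes. With upper quartile scaling or quantile normalization 3 of the 8 were lower as well, beside 17.9% and 19.5% of all genes. Ganab, a glucosidase that prepares glycans for calnexin, read 60.3 in Il34LacZ/LacZ and 265 in Il34+/LacZ (difference -1.88). Calnexin itself, Canx, differed by -1.41, the chaperone Hspa5 by -1.21, the glycoprotein folding sensor Uggt1 by -0.77 and calreticulin, Calr, by -0.41. Pdia3, which like Calr belongs to the loading complex itself, differed by -0.51. Neither Calr nor Pdia3 reached 1.5-fold, and they lay 0.13 and 0.15 above genes of their level. Of 8 activators and assembly factors of the proteasome 6 were lower and none higher, with a median of -0.90. Relative to their level 4 were lower, with a median of -0.62. With upper quartile scaling or quantile normalization 5 were lower. Psme2, a subunit of the interferon-induced PA28 cap, read 92.4 in Il34LacZ/LacZ and 322 in Il34+/LacZ (difference -1.64), while the other PA28 subunit, Psme1, differed by -0.50. Pomp, the chaperone of core assembly, differed by -1.38, the assembly chaperone Psmg1 by -0.96 and Psme3, which caps nuclear proteasomes, by -0.92.

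Other subunits of the 20S core had a median near that of their level. Of 14 that reach the floor, 6 were lower by 1.5-fold or more and none higher, with a median of -0.57. Relative to their level the median was 0.06, and 3 were lower and 2 higher. Of all genes 29.8% were lower and 15.9% higher as deposited, and 18.0% and 14.1% relative to their level. Psmb7 differed by -1.58, Psma6 by -1.50, Psmb2 by -1.31 and Psma7 by -1.15, against -0.58 for Psma5. Of 8 cytosolic and other peptidases 4 were lower and none higher, with a median of -0.62, beside 29.8% of all genes lower. Relative to their level 1 was lower, with a median of -0.16. With upper quartile scaling 2 were lower, and with quantile normalization 1, beside 17.9% and 19.5% of all genes. The median with quantile normalization was -0.16. Blmh, bleomycin hydrolase, differed by -1.69, but it reached the floor in Il34+/LacZ alone, so its direction follows from the floor. Dpp8 differed by -0.89, tripeptidyl peptidase 2, Tpp2, by -0.79 and the metalloprotease Nrd1 by -0.69. Of 9 cross-presentation genes 4 were lower and none higher, beside 29.8% and 15.9% of all genes. With quantile normalization 2 were lower, beside 19.5% of all genes. Their median was -0.34 as deposited, but 0.15 relative to their level and 0.06 with quantile normalization. Rab14 and Wdfy4 differed by -1.35 and -1.15, and Sec61b and Stx4a by -0.89 and -0.79.

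Regulators of class I genes were read lower in several cases. Of 13 transcription factors other than Nlrc5, 7 were at least 1.5-fold lower and none higher, with a median of -0.59, or -0.26 relative to their level, where 5 were lower and 1 higher. At 1.5-fold, the shares among all genes were 29.8% lower and 15.9% higher as deposited, and 18.0% and 14.1% relative to their level. Upper quartile scaling and quantile normalization each left 5 of the 13 lower and none higher, beside 17.9% and 19.5% of all genes lower. Nfyb and Nfyc, both subunits of NF-Y, differed by -1.82 and -1.51, and Atf1, a factor that binds TGACG sites, by -1.34. Nfyb reached the floor in Il34+/LacZ alone, so its direction follows from the floor. The remaining NF-Y subunit, Nfya, differed by -0.43 and lay 0.08 above genes of its level. Creb1, which also binds TGACG sites, read 269.9 on both arrays and lay 0.60 above genes of its level. Ciita, the class II counterpart of Nlrc5, read 329 in Il34LacZ/LacZ and 1011 in Il34+/LacZ (difference -1.58), and Irf8 differed by -0.30. Of 12 genes of interferon receptor signalling 8 were lower and none higher, with a median of -1.03, or -0.50 relative to their level, where 5 were lower and 2 higher. The count of 8 is for the values as deposited. Quantile normalization left 6 of the 12 interferon signalling genes lower by 1.5-fold and put 1 higher, and their median moved to -0.59. Upper quartile scaling kept 8 lower and put 1 higher, and the median moved to -0.76. Irf9, of the type I interferon complex, read 55.8 in Il34LacZ/LacZ and 205 in Il34+/LacZ (difference -1.62). The kinases Tyk2, Jak2 and Jak1 differed by -1.61, -1.30 and -1.27. Ifngr2, a chain of the interferon gamma receptor, read higher, at 911 in Il34LacZ/LacZ and 636 in Il34+/LacZ (difference 0.51).

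**Figure D5:**
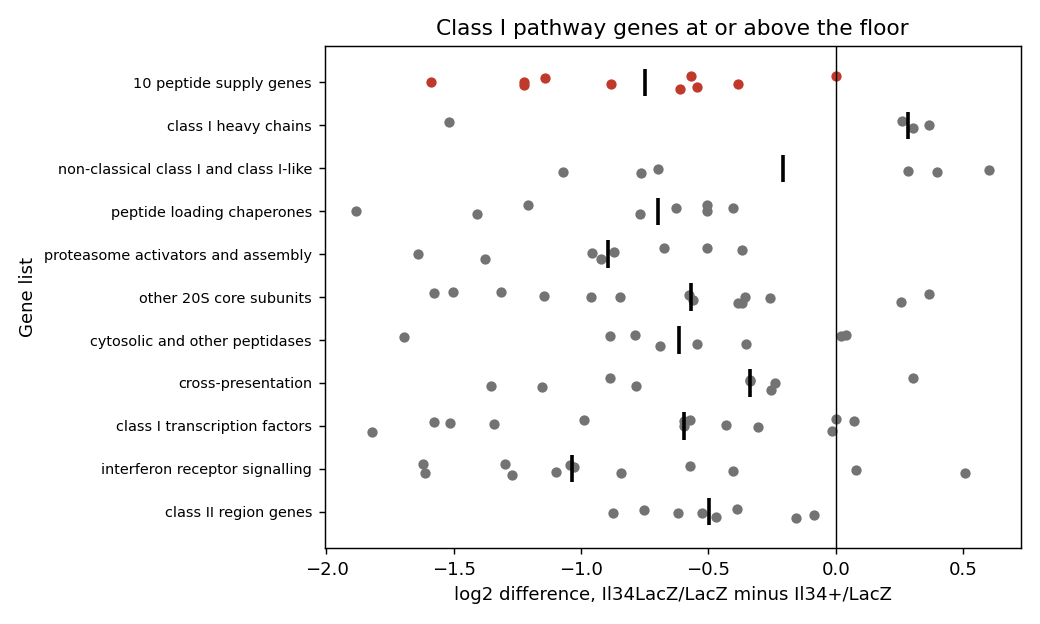
The log2 difference, Il34LacZ/LacZ minus Il34+/LacZ, of the 10 genes and of other class I pathway genes at or above the floor, 1 point a gene with the median of each list as a black bar. The medians run from -1.03 for interferon receptor signalling to 0.28 for class I heavy chains, of which H2-Q10 reached the floor in Il34LacZ/LacZ alone.

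The sort was marked by Langerhans cell genes on both arrays and differed between them in markers of other cells. All 12 Langerhans cell markers reached the floor, with a summed intensity of 35578 in Il34LacZ/LacZ and 43643 in Il34+/LacZ. Of the 12, 5 were at least 1.5-fold lower and none higher, with a median difference of -0.43. Of all genes 29.8% were lower and 15.9% higher by that fold. Relative to genes of the same level 1 of the 12 was lower and 1 higher, with a median of 0.14. With upper quartile scaling 2 were lower and none higher, and with quantile normalization 2 were lower and 1 higher. The 4 brightest of the 12, H2-Ab1, H2-Aa, Cd74 and Mfge8, make up most of the sum and differed by -0.08, -0.16, -0.14 and -0.21. Sirpa and Tgfbr1 differed by -1.22 and -1.13. Cd207, which encodes Langerin, read 1852 in Il34LacZ/LacZ and 3153 in Il34+/LacZ, a difference of -0.76. Epcam, the other marker of the sort, read 708 in Il34LacZ/LacZ and 633 in Il34+/LacZ, a difference of 0.16. It lay 0.81 above genes of its level and was the 1 of the 12 counted as higher on that measure. Of 10 keratinocyte markers that reach the floor, 9 were at least 1.5-fold lower, and the sum of all 12 on the array was 819 in Il34LacZ/LacZ and 4932 in Il34+/LacZ. The sum of all 9 neutrophil markers was 1571 in Il34LacZ/LacZ and 352 in Il34+/LacZ. It was carried by S100a8, at 552 in Il34LacZ/LacZ and 71.9 in Il34+/LacZ, and S100a9, at 699 in Il34LacZ/LacZ and 103 in Il34+/LacZ. The other 4 that reached the floor, Camp, Elane, Mpo and Ngp, did so in Il34LacZ/LacZ alone, so their direction follows from the floor. Of 11 monocyte and macrophage markers 4 were higher and 3 lower, with sums of 5159 in Il34LacZ/LacZ and 4108 in Il34+/LacZ. Relative to genes of the same level 6 were higher and none lower, with a median of 0.62, beside 14.1% of all genes higher and 18.0% lower. With upper quartile scaling or quantile normalization 6 were higher and 1 lower. Under these scalings 30.1% and 17.4% of all genes were higher, and 17.9% and 19.5% lower. Pf4 read 975 in Il34LacZ/LacZ and 148 in Il34+/LacZ, and Ms4a7 270 and 64.8. The 3 lower as deposited were Adgre1, Plac8 and Lyz2. T cell markers were well above the floor on both arrays, with sums over 7 genes of 7425 in Il34LacZ/LacZ and 8334 in Il34+/LacZ. Sums over 8 dermal dendritic cell markers were 1123 in Il34LacZ/LacZ and 2005 in Il34+/LacZ. Most of this gap came from Itgae, at 479 in Il34LacZ/LacZ and 1082 in Il34+/LacZ, and Flt3, at 121 and 331. Batf3, Zbtb46 and, below the floor, Xcr1 and Clec9a read higher in Il34LacZ/LacZ. Of the 6 that reached the floor 3 were lower and none higher. Relative to genes of the same level 1 was lower, with a median of -0.04. Sums over 5 B cell markers were 243 in Il34LacZ/LacZ and 195 in Il34+/LacZ, and over 9 fibroblast and endothelial markers 678 in Il34LacZ/LacZ and 454 in Il34+/LacZ. No marker was listed at 0. These cells carry class I genes too, and the part of these markers in the readings of the 10 genes was not tested.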

How the data were processed

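For 34760 probe sets the authors deposited an intensity on each array; that it is linear was read from the values, and how probes were summarized, corrected for background and scaled is not given in the sources used here. No scanner file and no detection call was used here. The platform annotation gave 1 gene symbol to 21640 probe sets, several to 1321 and none to 11799, and 21553 of the first kind matched the RefSeq table of GRCm38.p6, with the same symbol in 21553 cases. A gene was represented by its probe set with the highest mean log2(intensity + 16). Genes whose brighter array reached the median of all probe sets were used. The median difference of the 500 genes nearest in mean level, the 10 genes left out, gave the value relative to the level. With 1 array per genotype no test was run, and the number of arrays limits the precision. The scripts were tested on simulated data. The 10 genes and all lists were chosen with earlier results of these data known. All 10 were named; of lists with more than 6 measured genes, at most the 4 furthest apart and the 2 brightest got values. Outside this rule Psmb5 and Psmb6 were named as known partners, and H2-K1 and H2-D1 were named for their promoters after these were read. Pdia3, Epcam, Nfya and Creb1 were added for their known roles, with their values known. Alternatives changed the pseudocount, scaling, probe set rule, floor, neighbour rule and fold. Python 3.11.15, numpy 2.4.6, pandas 2.3.3, statsmodels 0.14.6 and matplotlib 3.10.9 were used.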

Additional observations from a re-analysis of the deposited data

How the results depend on the processing

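The number of the 10 genes at least 1.5-fold lower in Il34LacZ/LacZ was 6 and ran from 4, with quantile normalization, to 8, with each array centred on its median, and none was 1.5-fold higher under any of these alternatives. The number at least 1.5-fold below genes of the same level was 3, and it was 3 or 4 under every alternative at that fold. At 2-fold the counts were 4 and 2. Tap1, H2-M3 and Erap1 stayed at least 1.5-fold below their level in all 14 settings computed per gene. Tap1 lay between -1.46 and -0.79, H2-M3 between -1.20 and -0.60 and Erap1 between -1.54 and -0.81. Settings that only change the floor or centre each array cannot move these values, and Erap1 reached the floor in Il34+/LacZ alone. The median relative to the level ran from -0.39 to 0.02 and so had no settled sign. The scalings moved the median difference of all genes by -0.15 (centred), 0.31 (upper quartile) and 0.18 (quantile), and the median of the 10 genes was then -0.90, -0.47 and -0.28. Tap2 and Tapbp passed 1.5-fold when arrays were centred, at -0.72 and -0.70, but read -0.15 and -0.05 with quantile normalization. With quantile normalization Nlrc5 read -0.07, and by its probe set with the lowest mean its distance to its level was -1.30 in place of 0.03. Leaving out B2m, chosen after seeing the data, gave a median difference of -0.88 in place of -0.75. No paired analysis was possible because each genotype has 1 array.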

Other observations

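The Nlrc5 probe sets split along their numbers, a pattern seen only once the values had been looked at. Of the 9 with the lowest numbers, 8 read lower in Il34LacZ/LacZ, with a median difference of -0.78. Of the 10 with the highest numbers, 4 read lower and 6 higher, with a median of 0.18. Whether the numbers follow the position of probes along the gene is not given in the sources used here.

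Probe sets with the same value on both arrays were spread unevenly over brightness. They were 379 of the 17142 probe sets with a mean intensity under 50 and 68 of the 15443 from 50 to 500. Of the genes at or above the floor, 46 were of this kind, among them B2m and Creb1, which was named here after its values were seen and read 269.9 on both arrays.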
